A study of Mus musculus with 19 samples.

Results

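The Notch pathway lets neighbouring cells instruct each other, and 10 of its genes that are used by endothelium were followed here through tumors and normal tissues. They were 4 ligands (Dll1, Dll4, Jag1 and Jag2), 2 receptors (Notch1 and Notch4) and 4 effectors (Hey1, Hey2, Heyl and Nrarp). Each gene was read from a probe set whose annotation carried that symbol alone, taking the brightest where there was a choice, and these 10 genes were among 22180 genes tested. All 10 had such a probe set, and Dll1 had a further, dimmer one.

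RNA was measured on 19 Affymetrix arrays from mice of a mixed C57Bl/6 and 129X1/SvJ background. There were 7 tumors, which the series design calls angiosarcomas (malignant tumors of endothelial lineage), 4 aortas, 4 sternocleidomastoid muscles from the neck and 4 quadriceps femoris muscles from the thigh. The tumor-bearing mice had the genotype aP2-Cre/+;DicerFlox/-, which is Cre recombinase under the aP2 (Fabp4) promoter with 1 floxed and 1 null allele of Dicer, whereas all normal tissues were wild type. Tissue and genotype therefore changed together in every tumor comparison and cannot be told apart. The aP2 promoter is known for its activity in adipocytes and also acts in some endothelial cells and macrophages. The labels gave no age, sex, treatment, batch or animal identity, and they did not say whether samples of a group came from separate animals, so each p-value reflects the spread among the samples at hand, which may be technical.

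Notch ligands sit on the surface of a sending cell and bind Notch receptors on its neighbour, whose intracellular domain is then cut free, enters the nucleus and joins the DNA-binding protein RBPJ to switch on target genes. In sprouting vessels Dll4 on the leading tip cell signals through Notch1 to keep the following stalk cells from becoming tips, and Jag1 is known in mice to oppose that signal. Notch signalling also favours arterial over venous identity and acts in the smooth muscle and pericytes of the vessel wall. The Hey genes encode transcriptional repressors that are direct targets of the pathway, and Nrarp is a direct target that damps the signal in return.

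Values are log2 intensities, in which array medians lay between 5.35 and 5.48. As a guide to dim signal chosen after the values were seen, 95% of 1105 olfactory receptor genes averaged below 5.31 over the arrays. A gene was called higher or lower when its adjusted p from limma (Benjamini-Hochberg over all 22180 genes) was under 0.05. Cell type markers differed strongly between the tissues. The mean of 12 endothelial markers was 10.26 ± 0.40 (SD, n = 7) in tumors, against 8.34 ± 0.05 in aorta, 7.80 ± 0.16 in sternocleidomastoid and 7.74 ± 0.09 in quadriceps (n = 4 each), and 12 of 12 were higher in tumors than in aorta and than in muscle. Because whole tissue was measured, more cells of a type and more RNA per cell cannot be told apart. The aortas carried the smooth muscle myosin Myh11 (11.13) but also the cardiac myosin Myh6 (10.02) and the brown fat uncoupling protein Ucp1 (12.77), and their mean of 6 heart muscle markers was 10.10 ± 0.29, against 5.59 ± 0.21 in tumors. The sternocleidomastoid samples carried Ucp1 as well (11.22).

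The promoters of 3 of the genes are shown because they span the patterns described here: Hey2 was the effector that was lower in tumors than in aorta, Nrarp the effector with the highest fold over aorta, and Dll4 the ligand that varied most among tumors. Each sequence runs 5′ to 3′ from 250 bases before to 20 bases after the transcription start in RefSeq, build GRCm38.p6. Capitals mark GTGGGAA or its reverse complement TTCCCAC, the core bound by RBPJ.
Hey2, chr10:30842764-30843033, minus strand: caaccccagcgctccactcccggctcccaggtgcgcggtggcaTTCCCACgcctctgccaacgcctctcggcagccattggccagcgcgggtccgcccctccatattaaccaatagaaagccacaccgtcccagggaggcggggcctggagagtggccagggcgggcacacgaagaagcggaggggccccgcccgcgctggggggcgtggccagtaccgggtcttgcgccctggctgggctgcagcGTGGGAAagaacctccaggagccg
Nrarp, chr2:25180508-25180777, plus strand: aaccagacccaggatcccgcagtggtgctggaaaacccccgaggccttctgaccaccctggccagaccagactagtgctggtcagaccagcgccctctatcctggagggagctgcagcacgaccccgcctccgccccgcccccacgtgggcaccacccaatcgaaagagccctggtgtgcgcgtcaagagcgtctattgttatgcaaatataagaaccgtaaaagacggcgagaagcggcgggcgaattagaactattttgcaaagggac
Dll4, chr2:119325534-119325803, plus strand: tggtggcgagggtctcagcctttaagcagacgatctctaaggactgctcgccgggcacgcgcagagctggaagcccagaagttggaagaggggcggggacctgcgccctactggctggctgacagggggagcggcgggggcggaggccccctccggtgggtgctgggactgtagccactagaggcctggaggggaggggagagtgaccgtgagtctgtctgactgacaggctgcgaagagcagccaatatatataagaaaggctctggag
Of the 10 genes, 8 had a promoter in the RefSeq table, with 9 promoters between them, and Hey1 and Heyl had none there. Within 250 bases before and 50 after the start, Hey2 alone among these 8 genes held the motif. It had GTGGGAA starting 4 bases before the start and TTCCCAC starting 207 bases before it. Over all 32851 promoters in the table, 6.38% held either form and 0.1% held both. The shorter TGGGAA and TTCCCA, which lie within the longer forms, were found in 25.6% of all promoters and likewise only in Hey2 among these genes. A match describes these letters only and is not evidence of binding.

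Compared with aorta, the question being how the tumors differ from a normal vessel, 7 of the 10 genes were higher in tumors, 1 was lower and 2 did not pass. Over all genes 36.2% were called in either direction, 18.6% higher and 17.5% lower. All 4 ligands and both receptors were higher, whereas among the effectors Nrarp was higher, Hey2 lower, and Hey1 and Heyl not called. Tumors and aortas did not overlap for 6 of the higher genes, against 12.2% of all genes wholly higher, and for Hey2, against 11.5% wholly lower. The median difference of the 10 genes was 1.37, against -0.02 for all genes.

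Compared with skeletal muscle (the mean of the sternocleidomastoid and quadriceps groups), 8 of the 10 genes were higher in tumors and 0 were lower, where 51% of all genes were called, 25.3% higher and 25.7% lower. The exceptions were Jag2 and Hey2. At an unadjusted p under 0.05, limma also gave 0 lower genes of the 10, against 6360 lower of all 22180. Tumors lay wholly above muscle for 6 of the 10 genes, against 14.6% of all genes, and the median difference was 1.62, against -0.04 for all genes. Against quadriceps alone 8 were higher, where 44.7% of all genes were called, 22.8% higher. Against sternocleidomastoid alone 7 were higher, where 45.9% were called, 23.2% higher. Hey1, described with the effectors, made the difference between these counts.

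**Figure D1:**
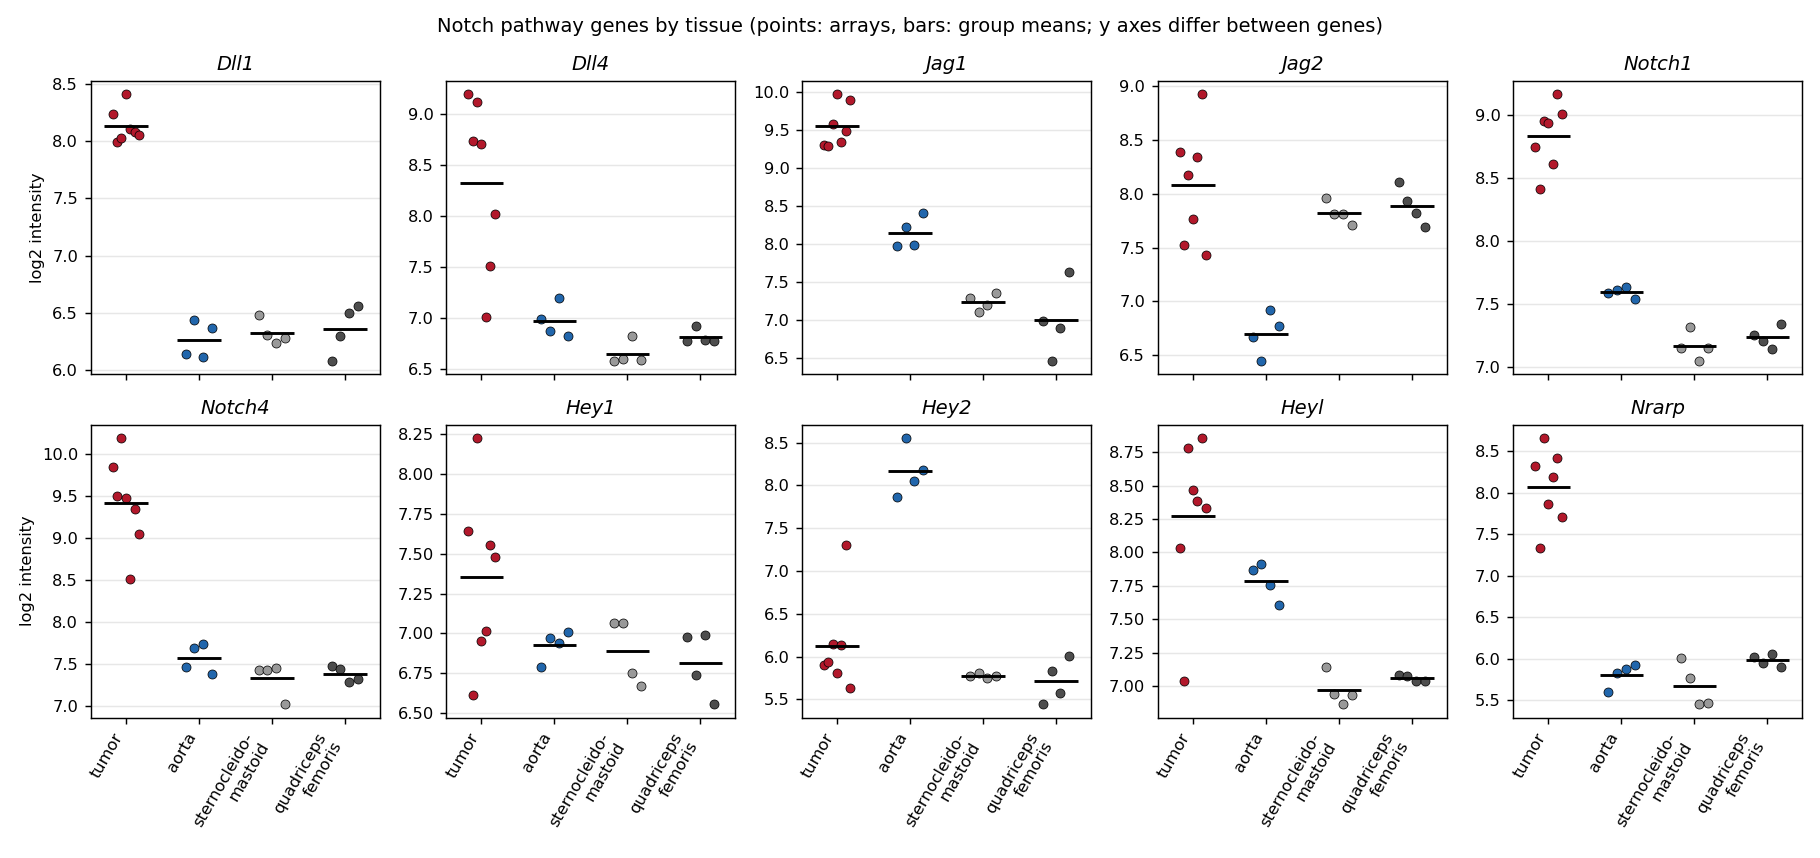
Log2 intensity of each gene (y axis, its own scale for each gene) in 7 tumors, 4 aortas, 4 sternocleidomastoid and 4 quadriceps femoris samples (x axis), where points are arrays and bars are group means. Tumors stand clear of all normal samples for Dll1, Jag1, Notch1, Notch4 and Nrarp, while for Hey2 the aortas (7.86 to 8.56) stand above every other sample.

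Among the ligands, Dll1, a Delta family ligand used in arterial endothelium and many other tissues, had the tightest tumor values. Its lowest, median and highest levels in the 7 tumors were 7.997, 8.09 and 8.41, against 6.14, 6.44, 6.11 and 6.37 in the aortas. Muscle samples spanned 6.23 to 6.48 in sternocleidomastoid and 6.08 to 6.56 in quadriceps. All tumors thus lay well above all normal samples, and the normal tissues overlapped one another. Dll1 was 3.65-fold higher in tumors than in aorta (log2 difference 1.87 ± 0.10 SE, limma adjusted p = 3.21e-10) and 3.46-fold higher than in muscle (1.79 ± 0.09, adjusted p = 2.56e-12). The further Dll1 probe set was dim, with means of 5.68 in tumors, 5.2 in aorta, 5.80 in sternocleidomastoid and 5.74 in quadriceps. Its tumor mean was thus above that of aorta but below those of both muscles, so the averaged muscle difference below rests on the brighter probe set. With the mean of both probe sets the differences were 1.17 from aorta and 0.85 from muscle, and both passed (limma adjusted p = 1.42e-09 and 6.84e-10).

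Dll4, the tip cell ligand that restrains sprouting, was higher in tumors on average but spread widely among them. The 7 tumors had 9.19, 8.74, 9.12, 8.71, 7.02, 7.51 and 8.02 in their order of numbering. The aortas had 6.99, 6.87, 7.20 and 6.83. Tumor 5 fell inside the aorta range, and the other 6 tumors lay above it. Sternocleidomastoid samples had 6.58, 6.599, 6.82 and 6.59, and quadriceps samples had 6.78, 6.93, 6.79 and 6.78, all below every tumor. Dll4 was 2.56-fold higher in tumors than in aorta (log2 difference 1.36 ± 0.31 SE, 95% interval 0.71 to 1.999, limma adjusted p = 0.00156) and 3.02-fold higher than in muscle (1.596 ± 0.25, adjusted p = 2.31e-05). Restricting the tumors to numbers 1 to 4 gave a difference of 1.97 from aorta, and restricting them to numbers 5 to 7 gave 0.54. These subsets were chosen with earlier results of these data known, so no p-value is read from them here. Those tumor numbers follow the sample titles, whose codes for tumors 5 to 7 come after those of the normal tissues.

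Jag1, the Jagged family ligand of endothelium and vascular smooth muscle, formed a graded series. Its lowest, median and highest tumor levels were 9.30, 9.49 and 9.97, against 7.98, 8.23, 7.99 and 8.41 in the aortas. Sternocleidomastoid samples had 7.30, 7.11, 7.21 and 7.36, and quadriceps samples had 6.99, 6.47, 6.90 and 7.64. Tumors lay above aortas, and aortas above both muscles, with no overlap at either step. The gene was 2.65-fold higher in tumors than in aorta (log2 difference 1.40 ± 0.18, limma adjusted p = 3.76e-06) and 5.41-fold higher than in muscle (2.44 ± 0.15, adjusted p = 4.65e-11), the highest fold over muscle among the 10 genes.

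Jag2, the other Jagged ligand, departed from the rest because the aorta and not the tumor stood apart. The 7 tumors had 8.39, 7.53, 8.17, 7.77, 8.34, 8.93 and 7.43, in their order of numbering, against 6.67, 6.45, 6.92 and 6.77 in the aortas. Sternocleidomastoid samples had 7.96, 7.82, 7.81 and 7.71, and quadriceps samples had 8.11, 7.93, 7.82 and 7.69. Aortas were lower than every other sample, while the muscles sat inside the range of the tumors. Jag2 was 2.60-fold higher in tumors than in aorta (log2 difference 1.38 ± 0.21, limma adjusted p = 3.41e-05), and its difference from muscle was 0.22 ± 0.17 (95% interval -0.14 to 0.58, adjusted p = 0.31). When arrays were centred on 7 housekeeping genes, the muscle difference became -0.53 and passed (limma adjusted p = 0.0116). These genes averaged 9.70 in tumors, against 9.12 in aorta, 8.96 in sternocleidomastoid and 8.94 in quadriceps, so that centring moved the median difference of all genes to -0.60 from aorta and -0.79 from muscle.

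Both receptors were higher in tumors than in every normal sample. Notch1, the main Notch receptor of endothelium, had a lowest, median and highest tumor level of 8.42, 8.94 and 9.17, against 7.59, 7.61, 7.64 and 7.53 in the aortas. Its muscle samples spanned 7.05 to 7.31 in sternocleidomastoid and 7.14 to 7.34 in quadriceps. The differences were 1.24 ± 0.11 from aorta (2.37-fold, limma adjusted p = 7.22e-08) and 1.64 ± 0.09 from muscle (3.11-fold, adjusted p = 2.16e-11).

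Notch4, a receptor largely restricted to endothelium, had 9.85, 9.51, 10.19, 9.48, 8.52, 9.35 and 9.05 in tumors 1 to 7. The aortas had 7.47, 7.69, 7.75 and 7.39, and the muscles spanned 7.02 to 7.45 in sternocleidomastoid and 7.29 to 7.48 in quadriceps. Tumor 5 was the lowest tumor, as for Dll4, yet still stood above all 12 normal samples. Notch4 was 3.59-fold higher in tumors than in aorta (log2 difference 1.84 ± 0.21, limma adjusted p = 1.32e-06) and 4.17-fold higher than in muscle (2.06 ± 0.17, adjusted p = 6.06e-09).

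Among the effectors, Nrarp, the ankyrin repeat protein that is induced by Notch and destabilises the cleaved receptor, had the highest fold over aorta of the 10 genes. The 7 tumors had 8.32, 7.34, 8.66, 7.87, 8.20, 8.41 and 7.71, against 5.60, 5.83, 5.88 and 5.92 in the aortas. Sternocleidomastoid samples had 6.01, 5.77, 5.45 and 5.46, and quadriceps samples had 6.02, 5.95, 6.06 and 5.90. Every tumor lay more than 1 log2 unit above every normal sample, and the normal levels were only slightly above the olfactory receptor guide of 5.31. Nrarp was 4.82-fold higher in tumors than in aorta (log2 difference 2.27 ± 0.19, limma adjusted p = 2.85e-08) and 4.74-fold higher than in muscle (2.25 ± 0.16, adjusted p = 3.89e-10).

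Hey2, a Hey family repressor used in arterial smooth muscle, arterial endothelium and ventricular heart muscle, ran the other way. The 7 tumors had 5.91, 5.94, 6.15, 5.81, 6.14, 7.31 and 5.63, against 7.86, 8.56, 8.05 and 8.18 in the aortas. Sternocleidomastoid samples had 5.77, 5.81, 5.75 and 5.78, and quadriceps samples had 5.44, 5.83, 5.57 and 6.00. Every aorta was above every tumor and muscle sample, and tumor 6 stood above the other tumors. Hey2 was 4.1-fold lower in tumors than in aorta (log2 difference -2.04 ± 0.23, limma adjusted p = 9.06e-07). The difference from muscle was 0.38 ± 0.19 (95% interval -0.01 to 0.77, adjusted p = 0.0958), and -0.37 with housekeeping centring. Fits that left out 1 array gave muscle differences of 0.19 to 0.47, lowest without tumor 6. Among those fits it passed only without tumor 7 (0.47, limma adjusted p = 0.0464). Against aorta, smooth muscle, heart muscle and brown adipocyte markers were also mostly lower in tumors. The mean of 8 smooth muscle markers spanned 8.42 to 9.46 in tumors, against 9.96 to 10.40 in aorta, with 6 of 8 called lower and 0 higher. The mean of 6 heart muscle markers spanned 5.38 to 6.02 in tumors, against 9.74 to 10.46 in aorta, with 6 of 6 lower. Of 6 brown adipocyte markers, 6 were lower than in aorta. Against muscle, where Hey2 was not called, 6 of 8 smooth muscle markers were higher and 2 lower. Of the 6 heart muscle and 6 brown adipocyte markers, 3 each were lower than in muscle and 0 higher. Over all genes 17.5% were lower than in aorta, and 25.3% higher and 25.7% lower than in muscle. The part of these cells in the Hey2 difference was not tested.

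Hey1, the endothelial Hey repressor, showed small differences. Its lowest, median and highest tumor levels were 6.61, 7.48 and 8.23, against 6.79, 6.97, 6.94 and 7.01 in the aortas. Muscle samples spanned 6.67 to 7.07 in sternocleidomastoid and 6.55 to 6.99 in quadriceps. Tumors 1, 3, 6 and 7 were above all normal samples, and tumors 2, 4 and 5 lay within their range. The difference from aorta was 0.43 ± 0.21 (95% interval -0.02 to 0.87, limma adjusted p = 0.132), and that from muscle was 0.50 ± 0.18 (1.42-fold, adjusted p = 0.0221). With housekeeping centring these were -0.15 and -0.25. The aorta difference passed without tumor 2 (0.55, limma adjusted p = 0.0276). The muscle call was lost after quantile normalization (0.40, limma adjusted p = 0.0652). With the tumors limited to numbers 1 to 4 the muscle difference was 0.51. Against quadriceps alone the difference of 0.54 passed narrowly (limma adjusted p = 0.046), a call lost in 16 of the 19 fits that left out 1 array, and against sternocleidomastoid alone it was 0.47 (adjusted p = 0.0826).

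Heyl, a Hey family member expressed in vascular smooth muscle and pericytes, had 8.04, 7.04, 8.78, 8.47, 8.38, 8.86 and 8.33 in tumors 1 to 7. The aortas had 7.87, 7.92, 7.76 and 7.61, and the muscles spanned 6.86 to 7.14 in sternocleidomastoid and 7.04 to 7.08 in quadriceps. Of the tumors, 6 were above all normal samples and tumor 2 was at the level of muscle. The difference from muscle was 1.26 ± 0.19 (2.39-fold, limma adjusted p = 1.23e-05). That from aorta was 0.48 ± 0.23 (95% interval 0.00 to 0.96, adjusted p = 0.113). The aorta difference passed without tumor 2 (0.69, limma adjusted p = 0.000299). It was 0.74 with tumors 5 to 7 only and -0.09 with housekeeping centring. Tumor 2 had the highest mean of 8 skeletal muscle fibre markers (10.67 of a tumor range from 5.67 to 10.67, against 5.95 to 8.15 in aorta and 12.39 to 12.60 in the muscles) and the lowest mean of 7 pericyte markers (7.94 of 7.94 to 9.58, against 8.19 to 8.32 in aorta). The part of these cells in its low Heyl was not tested.

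**Figure D2:**
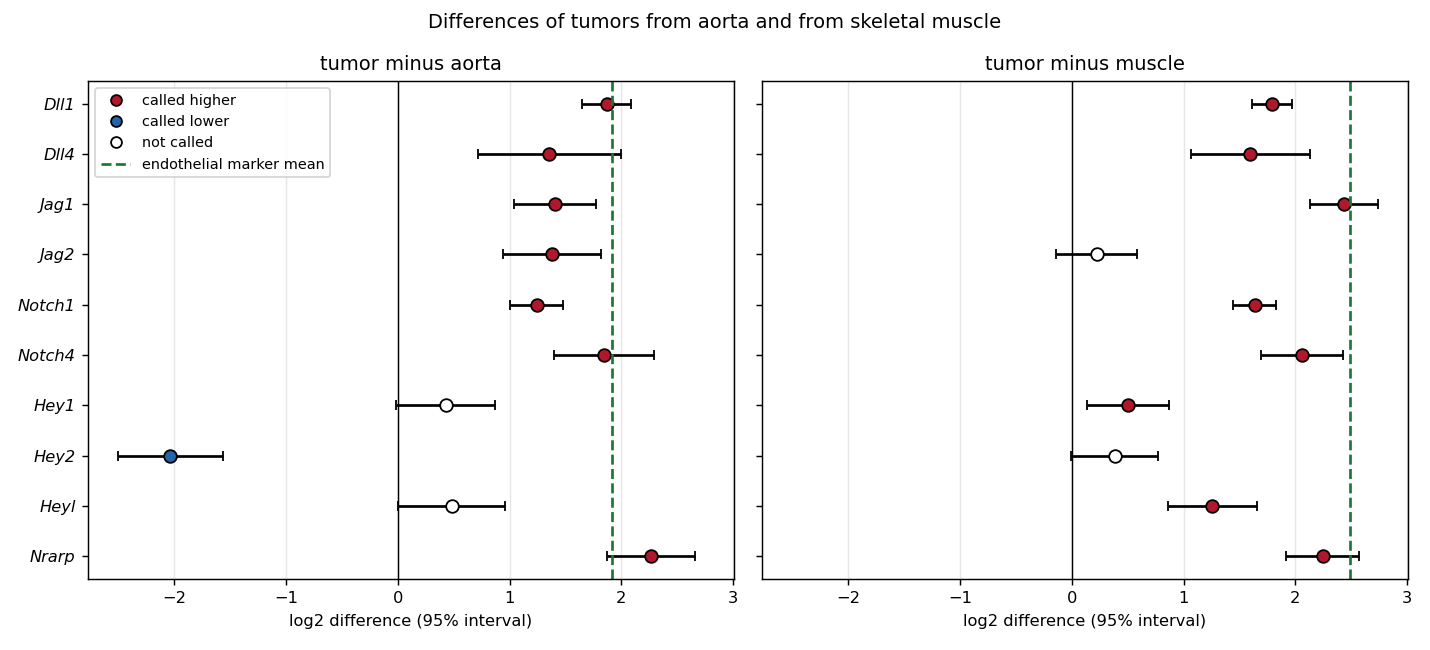
Log2 difference of tumors from aorta (left) and from muscle (right) on the x axis for each gene on the y axis, where points are limma estimates over 19 arrays and lines are 95% intervals, red for called higher, blue for called lower and white for not called. The dashed green line is the difference of the endothelial marker mean (1.92 from aorta and 2.49 from muscle), and only Nrarp has a point beyond it, in the aorta panel.

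Between the normal tissues, aorta against muscle, 5 of the 10 genes differed, 4 higher and 1 lower in aorta, against 32.3% of all genes called, 17% higher and 15.3% lower. Jag1 (log2 difference 1.03 ± 0.17, limma adjusted p = 9.58e-05), Notch1 (0.39 ± 0.11, 0.00855), Hey2 (2.42 ± 0.22, 6.35e-08) and Heyl (0.77 ± 0.22, 0.0111) were higher in aorta. Jag2 was lower in aorta by a difference of -1.16 ± 0.21 (adjusted p = 0.000184). These same 5 genes were called in aorta against each muscle alone, where 29.1% of all genes were called for quadriceps and 27% for sternocleidomastoid. For the other 5 genes the differences lay between -0.08 and 0.24. Between sternocleidomastoid and quadriceps, limma called 0 of the 10 genes, where 0.433% of all genes were called. At an unadjusted p under 0.05 it gave 0 of the 10 genes, against 828 higher and 739 lower of all 22180.

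The order of levels therefore took several forms, with 33 of 60 gene and tissue pairs called. Over all genes the called shares were 36.2%, 44.7% and 45.9% for tumor against aorta, quadriceps and sternocleidomastoid. They were 29.1% and 27% for aorta against quadriceps and sternocleidomastoid, and 0.433% between the muscles. Dll1, Dll4, Notch4 and Nrarp were highest in tumor, with no call between the 3 normal tissues. For Dll4, though, all aortas (6.828 and above) lay just above all sternocleidomastoid samples (6.823 and below), a difference of 0.33 (limma adjusted p = 0.554). Its aorta minus muscle difference of 0.24 passed when the tumors were left out of the fit (limma adjusted p = 0.0365). Jag1 and Notch1 ran tumor, aorta, then the muscles, with only the muscles not told apart. Heyl was higher in tumor and aorta than in muscle, without a called step between tumor and aorta. Hey2 was highest in aorta, with the other tissues not told apart, and Jag2 was lowest in aorta, again with the others not told apart. For Hey1 the step from quadriceps to tumor alone was called.

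Because endothelial markers were brighter in tumors, each gene was also set against them, by subtracting the mean of the 12 markers from every gene on each array before the same limma fit. Nearly every gene lies lower on that scale, with 96.7% of all genes lower and 0.392% higher in tumors than in aorta. Of the 10 genes, 6 were lower than aorta on this scale, 1 was higher and 3 did not pass. Nrarp was the higher one, with a relative difference of 0.35 ± 0.17 (limma adjusted p = 0.0486), a call lost in 16 of the 19 fits that left out 1 array. Dll1 (-0.05 ± 0.20, adjusted p = 0.801), Notch4 (-0.07 ± 0.19, 0.702) and Dll4 (-0.56 ± 0.28, 0.0588) did not pass. With the mean of both its probe sets Dll1 passed as lower (-0.75, limma adjusted p = 0.000831). Dll4 passed as lower in the fits without tumor 1, 2, 3 or 4 (-0.65, -0.69, -0.61 and -0.62, limma adjusted p from 0.017 to 0.0485). Of the 10 genes, the effectors Hey2 (-3.96 ± 0.23), Hey1 (-1.49 ± 0.19) and Heyl (-1.44 ± 0.22) lagged the markers most, followed by Notch1 (-0.68 ± 0.18), Jag2 (-0.54 ± 0.19) and Jag1 (-0.51 ± 0.25, adjusted p = 0.0492, lost in 13 of 19 such fits). Before subtraction the marker mean differed by 1.92 and the median of all genes by -0.02. The median gene thus lagged by more than Hey1 and Heyl, and of the 10 genes only Hey2 lagged further.

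Relative to muscle on the same scale, where 97.9% of all genes were lower and 0.383% higher, 8 of the 10 genes were lower in tumors and 0 higher. Jag1 (-0.05 ± 0.20, limma adjusted p = 0.793) and Nrarp (-0.25 ± 0.14, adjusted p = 0.0883) were the ones that did not pass. Nrarp passed as lower without tumor 5 (-0.30, limma adjusted p = 0.0492) and without tumor 7 (-0.28, adjusted p = 0.0408). The deepest relative differences of the 10 genes were those of Jag2 (-2.27 ± 0.16), Hey2 (-2.11 ± 0.19), Hey1 (-1.99 ± 0.16) and Heyl (-1.23 ± 0.18). Before subtraction the marker mean differed by 2.49 and the median of all genes by -0.04. The median gene thus lay deeper than each of the 10 genes. A relative difference does not separate the share of endothelial cells from the level within them.

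The tumors differed among themselves to very different degrees by gene. The highest tumor exceeded the lowest 4.53-fold for Dll4, 3.53-fold for Heyl, 3.2-fold for Hey2, 3.19-fold for Notch4 and 3.06-fold for Hey1. The same range was 2.82-fold for Jag2, 2.51-fold for Nrarp, 1.68-fold for Notch1, 1.59-fold for Jag1 and 1.33-fold for Dll1. Probe sets respond on their own scales, so these ranges describe each gene and are not tested against each other.

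**Figure D3:**
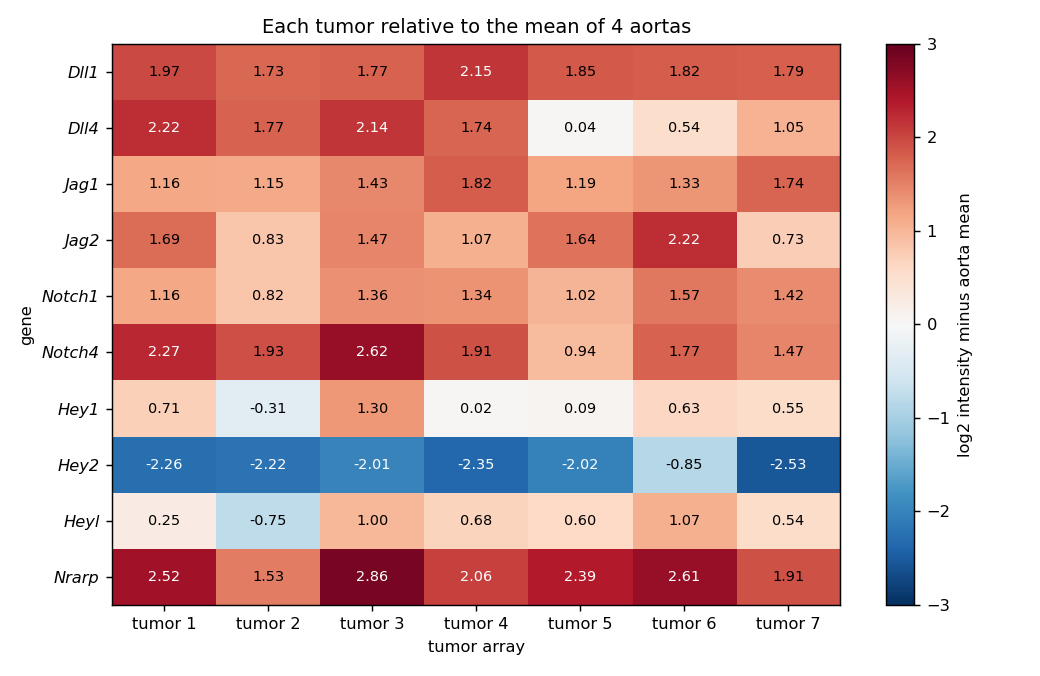
Log2 intensity of each tumor (x axis) minus the mean of the 4 aortas for each gene (y axis), printed in each cell and coloured from blue (below the aorta mean) to red (above it). Hey2 is below the aorta mean in all 7 tumors, from -2.53 to -0.85, and Dll4 is 1.74 or more above it in tumors 1 to 4 but 0.04, 0.54 and 1.05 above it in tumors 5, 6 and 7.

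Dll4 and Notch4 followed the title codes of the tumors, a split known from earlier results of these data and therefore described without a test. Dll4 averaged 8.94 in tumors 1 to 4 (8.71 to 9.19), against 7.52 in tumors 5 to 7 (7.02 to 8.02). Notch4 averaged 9.76 in tumors 1 to 4 (9.48 to 10.19), against 8.97 in tumors 5 to 7 (8.52 to 9.35). The ranges did not overlap for either gene. The share of all genes with separate ranges in this split was not counted, so the split is not read as particular to these genes. For the other 8 genes the mean of tumors 1 to 4 minus that of tumors 5 to 7 lay between -0.44 and 0.09, for example 8.17 in tumors 1 to 4 and 8.08 in tumors 5 to 7 for Dll1. The endothelial marker mean was 10.39 in tumors 1 to 4 and 10.08 in tumors 5 to 7. What the codes stand for is not given in the labels, so a batch and a difference between tumors cannot be told apart.

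Across the 7 tumors Dll4 showed no relation to the effectors that passed a test. Its Pearson r was 0.268 with Hey1, -0.435 with Hey2, -0.288 with Heyl and -0.013 with Nrarp, and 0.401 with the endothelial marker mean (two-sided exact permutation tests, adjusted p over the 5 relations from 0.714 to 0.997). Spearman rho was 0.357, -0.179, -0.357, 0.143 and 0.5 in the same sequence (exact permutation, adjusted p from 0.74 to 0.783). Without tumors 5 and 6, the tumors farthest from the Dll4 median, r was 0.322, 0.834, 0.038, 0.628 and 0.888, with unadjusted exact permutation p from 0.0667 to 0.817 (n = 5), so 3 of the 5 signs rested on those tumors. Among all 45 pairs of the 10 genes, the highest r over the 7 tumors was 0.887, between Dll4 and Notch4, followed by 0.844 between Notch1 and Heyl and 0.826 between Jag2 and Hey2. These describe 7 arrays that share tissue makeup and array effects.

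Tumors 6 and 2 stood at the ends of several ranges. Tumor 6 had the highest level of Hey2 (7.31), Jag2 (8.93), Notch1 (9.17) and Heyl (8.86), and the highest smooth muscle marker mean, 9.46, against 8.42 to 8.79 in the other tumors. Tumor 2 had the lowest level of 6 of the genes (Dll1, Jag1, Notch1, Hey1, Heyl and Nrarp) and the highest skeletal muscle fibre marker mean. The part of smooth muscle or adjoining muscle in these values was not tested.

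By likeness of pattern over the 19 arrays, the 2 genes with the highest Pearson r were named for each gene out of 12245 genes brighter than the array medians. Hey2 was closest to Myh11 (0.981) and Myocd (0.967), the smooth muscle myosin and the coactivator that drives smooth muscle genes. Nrarp was closest to the endothelial repressor Bcl6b (0.984) and the apelin receptor Aplnr (0.979). Dll4 was closest to Sema7a (0.967), a semaphorin, and Cda (0.960), cytidine deaminase. Notch1 was closest to Lrrc32 (0.989) and Adam15 (0.984), Notch4 to Sipa1l2 (0.989) and Cnot6 (0.984), Dll1 to Epha2 (0.981) and Mest (0.977), and Jag1 to Unc93b1 (0.980) and Rrbp1 (0.979). The lower likenesses were those of Heyl with Brd2 (0.962) and Vstm4 (0.955), Hey1 with Tubgcp6 (0.917) and Tepsin (0.902), and Jag2 with Rnf122 (0.896) and Spag9 (0.890). These values describe a contrast between tissues shared by many genes and carry no test.

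Lists of other pathway genes are to be read against the shares of all genes called. These were 18.6% higher and 17.5% lower than in aorta, and 25.3% higher and 25.7% lower than in muscle. Of 7 other receptors and ligands, 3 were higher in tumors than in aorta and 0 lower, with the same counts against muscle, and their median differences were 0.04 and 0.13. Egfl7, a secreted endothelial protein, was higher by 2.08 ± 0.13 than in aorta (limma adjusted p = 1.18e-09) and by 2.54 ± 0.11 than in muscle (4.67e-13). Notch3, the receptor of smooth muscle and pericytes, was higher by 1.52 ± 0.29 (adjusted p = 0.000351) and 1.76 ± 0.24 (3.73e-06). Egfl7 is also among the endothelial markers and Notch3 among the pericyte markers used here. Notch2, which the naming rule did not select, had a difference of -0.17 from aorta (limma adjusted p = 0.512) and was higher than muscle by 0.87 (adjusted p = 4.97e-05).

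Of 17 measured genes for ligand and receptor processing, 7 were higher and 4 lower than in aorta, and 11 higher and 3 lower than in muscle. The protease Adam10, which makes the ligand-dependent cut, was higher by 1.55 ± 0.11 and 1.88 ± 0.09 (limma adjusted p = 5.94e-09 and 3.56e-12). The ubiquitin ligase Neurl1b, of a family that acts on Notch ligands, was higher than aorta by 1.28 ± 0.14 (adjusted p = 6.4e-07). Its relative Neurl1a was lower than muscle by a difference of -2.43 ± 0.14 (adjusted p = 2.01e-11).

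Of 9 measured genes of the nuclear complex, 5 were higher and 1 lower than in aorta, and 5 higher and 2 lower than in muscle. The coactivator Maml3 led it against aorta (1.26 ± 0.16, limma adjusted p = 3.6e-06), with Maml1 (0.75 ± 0.14, 0.000302), which did not pass with housekeeping centring (0.17, adjusted p = 0.21). Against muscle Maml3 (1.33 ± 0.13, 4.28e-08) and the deacetylase Hdac1 (1.43 ± 0.10, 2.95e-10) were higher. Rbpj itself, named after its values were seen, was higher than aorta by 0.60 ± 0.14 (limma adjusted p = 0.00166) and differed from muscle by 0.19 (adjusted p = 0.176).

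Of 8 measured negative regulators, 4 were higher and 1 lower than in aorta, and 5 higher and 1 lower than in muscle. Dtx4, a Deltex family ubiquitin ligase, was higher by 1.22 ± 0.27 and 1.06 ± 0.22 (limma adjusted p = 0.00119 and 0.000442). Fbxw7, whose product marks the cleaved receptor for degradation, was higher than aorta (0.81 ± 0.09, 1.58e-06) but was the gene called lower than muscle (-0.37 ± 0.08, 0.000457). Numbl, a relative of the inhibitor Numb, was higher than muscle (0.83 ± 0.12, 6.2e-06). With housekeeping centring the muscle differences of Numbl and Dtx4 no longer passed (0.085 and 0.31, limma adjusted p = 0.487 and 0.227). The gene called lower than aorta, Dtx1, lost its call in 13 of the 19 fits that left out 1 array.

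Of 9 other target genes, 4 were higher and 0 lower than in aorta, and 5 higher and 1 lower than in muscle. The cell cycle gene Ccnd1 was higher by 2.58 ± 0.28 and 2.91 ± 0.23 (limma adjusted p = 5.55e-07 and 1.91e-09), and the transcription factor Myc by 2.04 ± 0.31 and 1.47 ± 0.26 (3.21e-05 and 6.31e-05). Both answer to many other pathways. Hes1, a repressor and direct Notch target named after its values were seen, was higher by 1.10 ± 0.19 (limma adjusted p = 0.000109) and 1.04 ± 0.15 (1.07e-05).

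**Figure D4:**
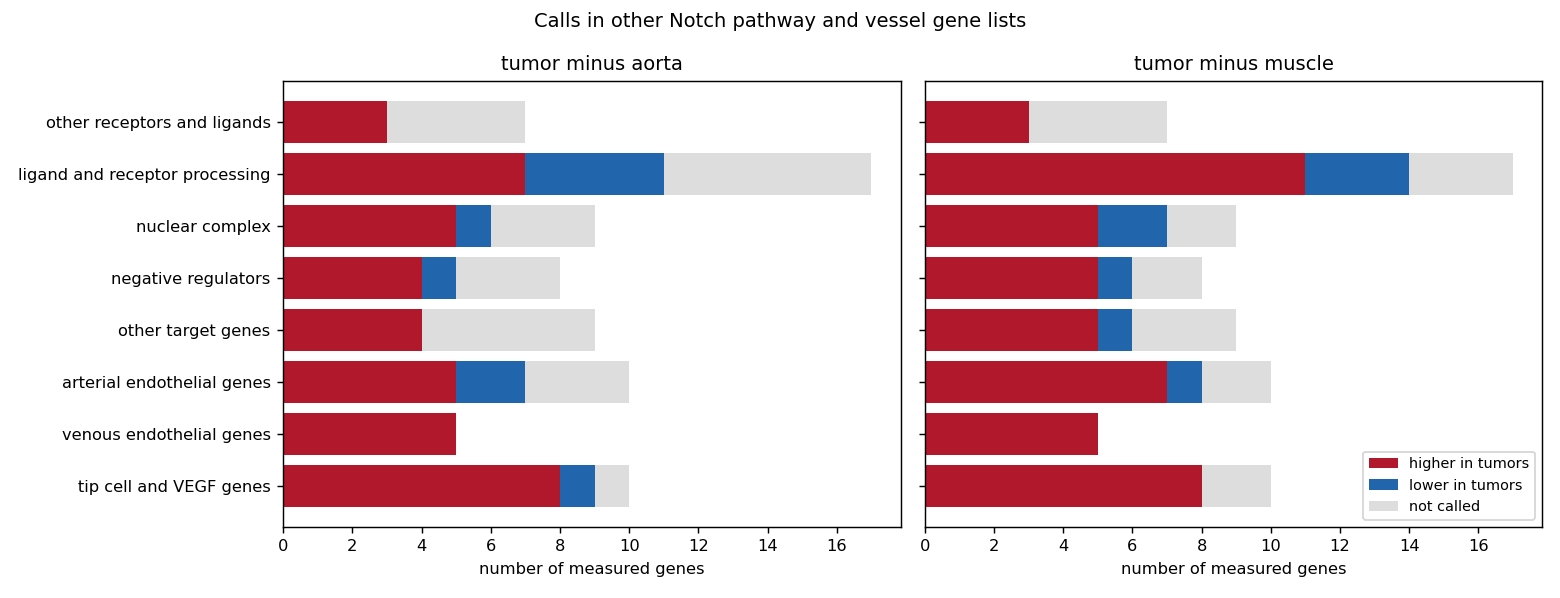
Number of measured genes (x axis) in each other pathway or vessel list (y axis) that were called higher in tumors (red), called lower (blue) or not called (grey), against aorta (left) and muscle (right). All 5 venous genes are higher in both panels, as are all 12 endothelial markers (not drawn). The processing, nuclear and regulator lists hold calls in both directions. Of all genes, 17.5% are lower than in aorta and 25.7% lower than in muscle.

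Of 10 arterial endothelial genes, 5 were higher and 2 lower in tumors than in aorta, and 7 higher and 1 lower than in muscle. Cxcr4, a chemokine receptor, was higher by 1.44 ± 0.35 and 2.09 ± 0.29 (limma adjusted p = 0.00309 and 5.06e-06), though its difference from aorta fell to 1.01 with tumors 5 to 7 alone. Unc5b, a netrin receptor, was higher by 1.44 ± 0.18 and 1.71 ± 0.15 (3.8e-06 and 8.44e-09). The arterial genes lower than in aorta, named after their values were seen, were the gap junction gene Gja5 (-0.52 ± 0.08, limma adjusted p = 4.1e-05) and the kinase gene Bmx (adjusted p = 4.77e-06). The means of Bmx, 4.32 in tumors and 5.30 in aorta, were both under the olfactory receptor guide of 5.31, so no level or size is read from it.

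All 5 venous endothelial genes were higher in both comparisons, with medians of 1.79 from aorta and 2.49 from muscle. The 12 endothelial markers, all higher as well, had medians of 1.86 and 2.49. The venous list therefore moved about as far as endothelial markers in general. They were led by Aplnr (4.10 ± 0.37 and 4.04 ± 0.31, limma adjusted p = 7.45e-08 and 1.28e-09), with the ephrin receptor Ephb4 against aorta (1.97 ± 0.21, 6.46e-07) and the VEGF co-receptor Nrp2 against muscle (2.60 ± 0.18, 2.68e-10). Of 10 tip cell and VEGF genes, 8 were higher in both comparisons, with 1 lower than aorta and 0 lower than muscle. Apln, the apelin ligand, was higher by 3.65 ± 0.20 than in aorta (limma adjusted p = 2.32e-10). It averaged 9.48 in tumors and 5.04 in muscle (adjusted p = 6.65e-14). Pgf, placental growth factor, averaged 8.12 in tumors, 4.99 in aorta and 5.21 in muscle (adjusted p = 1.03e-06 and 5.65e-08). The muscle mean of Apln and both normal means of Pgf were under the olfactory receptor guide of 5.31, so the sizes of these differences are not read. The gene lower than aorta was Vegfa (-1.25 ± 0.47, limma adjusted p = 0.0448), a call lost in 15 of the 19 fits that left out 1 array. Emcn and Kdr in these lists are also among the endothelial markers and Flt4 among the lymphatic ones.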

How the data were processed

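RNA of 7 tumors, 4 aortas, 4 sternocleidomastoid and 4 quadriceps femoris samples was measured on Affymetrix arrays, with 1 array per sample. Per the labels' protocols it was extracted with the miRNeasy mini kit and labelled as biotinylated cRNA. The authors deposited 1 value per probe set and array, taken here as log2 intensity from its range of 1.59 to 13.8 and array medians of 5.35 to 5.48. Partek 6.6 is named in the submitters' processing notes with no role, and the normalization of the values is not given in the sources used here. Positions are given only for RefSeq promoters, since the build of the array annotation is not stated.

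Of 41345 probe sets, 23521 carried 1 gene symbol in the platform annotation, 1814 several and 16010 none. The brightest single-symbol probe set per gene left 22180 genes. Groups came from the labels. limma 3.58.1 in R 4.3.3 fitted 1 mean per group over all 19 arrays (lmFit, then eBayes with two-sided tests), with Benjamini-Hochberg adjustment over all genes and a threshold of 0.05. Intervals are 95% intervals from the same fit. Python 3.11.15 with scipy 1.17.1 gave the exact permutation tests. The fit was tested on simulated data before use. The number of arrays limits the precision.

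The 10 genes, the other gene lists and the tumor subsets were chosen with earlier results of these data known. In each other list, and for each tumor comparison, the text names the 2 called genes that differed most. Notch2, Rbpj, Dtx1, Hes1, Gja5, Bmx and Vegfa fall outside that rule and were chosen after their values were seen. Lists held 7 other receptors and ligands, 17 measured processing genes, 9 nuclear complex genes, 8 negative regulators, 9 other targets, 10 arterial, 5 venous and 10 tip cell or VEGF genes. Markers of macrophages were higher in 7 of 7 cases in both tumor comparisons. Of 5 measured lymphatic endothelial markers, 3 were higher and 0 lower than in aorta, and 4 higher and 1 lower than in muscle. Satellite cell markers were lower than in muscle in 5 of 5 cases and called by limma in 0 of 5 against aorta (0 also at an unadjusted p under 0.05), and brown adipocyte markers were lower than in aorta in 6 of 6. Of 7 pericyte markers, 2 were higher and 1 lower than in aorta, and 6 higher and 1 lower than in muscle. Of 8 skeletal muscle fibre markers, limma called 0 against aorta (1 higher at an unadjusted p under 0.05) and 8 lower than in muscle. At that unadjusted p, limma gave 4837 higher and 4787 lower than in aorta of all 22180 genes.

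Alternatives were other scalings, probe set rules, variance models, thresholds, tumor subsets and leaving out each array. Leaving out arrays on the scale relative to endothelial markers, and counting tissue pairs under each alternative, were chosen after seeing the data.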

Additional observations from a re-analysis of the deposited data

Results flagged for a closer look

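In 4 of 40 groups of samples, 1 sample stood far from the rest by Dixon's criterion, which chance meets in about 1 in 20 groups. In tumors, Hey2 was highest in tumor 6 at 7.31, with the next tumor at 6.15. In the muscles, Dll4 was highest in quadriceps sample 2 at 6.93 (next 6.79) and in sternocleidomastoid sample 3 at 6.82 (next 6.599). Notch4 was lowest in sternocleidomastoid sample 4 at 7.02 (next 7.43). The gaps in muscle spanned no more than 0.41 log2 units, and the causes were not tested.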

How the results depend on the processing

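Over 50 differences of the 10 genes and 1600 alternatives, 1542 kept their direction and their side of the threshold, 32 lost a call, 12 gained one and 14 changed sign. No paired analysis was possible because the labels give no animal identity. Leaving out each array in turn gave 7 to 9 genes higher and 1 lower than aorta, 8 to 9 higher than muscle, 7 to 8 higher than quadriceps, 7 to 8 higher than sternocleidomastoid, 4 higher and 1 lower in aorta than muscle, 29 to 36 called gene and tissue pairs, and, relative to endothelial markers, 0 to 1 higher and 5 to 7 lower than aorta and 8 to 9 lower than muscle. All genes called then ranged from 7095 to 8277 for tumor minus aorta, 10765 to 11361 for tumor minus muscle, 8947 to 10090 for quadriceps, 9345 to 10361 for sternocleidomastoid, 6234 to 7481 for aorta minus muscle and 52 to 123 between the muscles, lowest without quadriceps samples 2, 1 and 3. Housekeeping centring called 18087 genes against aorta (8023 otherwise), 19655 against muscle (11308), 19055 against quadriceps (9922) and 18991 against sternocleidomastoid (10170). The share of calls that were higher was then 7.16% against aorta (51.5% otherwise) and 9.79% against muscle (49.7%), and 28.5% in aorta minus muscle (52.6%). Under it 1 of the 10 genes, Jag2, was lower than muscle, quadriceps and sternocleidomastoid (-0.53, -0.57 and -0.49), and 2 rather than 4 were higher in aorta than muscle. It also turned Hey1 (-0.15 from aorta, -0.25 from muscle, -0.22 from quadriceps, -0.28 from sternocleidomastoid and -0.10 for aorta minus muscle), Heyl (-0.091 from aorta) and Hey2 (-0.37, -0.34 and -0.39 from muscle, quadriceps and sternocleidomastoid). Requiring 1 log2 unit left 2569 genes against aorta, 3863 against muscle, 3850 against quadriceps, 3868 against sternocleidomastoid, 1993 (of 7168) in aorta minus muscle, with 2 of the 10 genes higher, and 52 (of 96) between the muscles. Between the muscles the count was 219 with 1 variance per group, 49 at a threshold of 0.01, 145 with tumors 1 to 4 only and 200 with the compared groups only. Averaging probe sets gave 2 genes lower in aorta than muscle, adding Dll1 (-0.32). Leaving out 1 array moved Nrarp in aorta minus muscle between -0.060 and 0.048, above 0 without aorta sample 1 (0.048) and without sternocleidomastoid sample 1 (0.035). Relative to endothelial markers, 0 genes were higher than aorta with trend and robust options of eBayes. On that scale Dll1 against aorta was 0.073 with the marker median and -0.135 to 0.048 leaving out 1 array, above 0 without tumor 3 or aorta 2, and -0.75 with the mean of its probe sets, which passed as lower. Notch4 against aorta was 0.049 with the marker median and -0.153 to 0.043 leaving out 1 array, above 0 without tumor 5. Jag1 against muscle was 0.031 with the marker median and -0.208 to 0.052 leaving out 1 array, above 0 without tumor 1, tumor 3 or quadriceps sample 4. Without tumors 5 and 6, Dll4 correlated at 0.834 with Hey2, 0.038 with Heyl and 0.628 with Nrarp. Of 1024 alternatives for the named genes of other lists 1017 kept direction and call and 7 lost a call, among them Maml1 against aorta and Dtx4 and Numbl against muscle with housekeeping centring. The cause was not tested for any of these. Hey2 in tumors and muscle and Nrarp in normal tissue were near the dim end, which limits their differences.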
